A study of Mus musculus with 12 samples.

Results

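Clusterin, the product of Clu, was followed here across all arrays of the series through every probe set whose single platform gene symbol is Clu. There were 3 such probe sets among 45037 on the array, and the brightest of them stood for Clu among 17097 genes. Clu (gene ID 12759) lies on mouse chromosome 14 at 65968483 to 65981548 in GRCm38.p6. The gene was chosen by its measured changes against the controls in these data, which were those of both comparisons below, so its own levels and changes are given as a description, with standard deviations (SD) or standard errors (SE) and without a test.

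The series holds 12 expression arrays from embryos of mixed genetic background, with 3 arrays for each of 4 groups. At E11.5, forebrain and midbrain came from TetO-YAP1;Nes-rtTA embryos (YAP overexpression) and from Nes-rtTA embryos (YAP control). The inducible allele was YAP1-S127A, driven by a transactivator under the neural progenitor-specific Nestin promoter, and dams ate doxycycline at 200 mg/kg of food from E7.5. At E13.5, dorsal telencephalon came from Nf2F/F;Emx1-Cre embryos (Nf2 knockout) and from Nf2F/+;Emx1-Cre embryos (Nf2 control), so that the controls also carried this Cre, which is active in the telencephalon, and were left with 1 Nf2 allele where it acted. Both manipulations concern the Hippo pathway, in which Nf2 (Merlin) acts upstream of the kinases that hold back the co-activator YAP.

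Clusterin, also called apolipoprotein J, is a secreted glycoprotein whose precursor is cut into a pair of chains joined by disulfide bonds. Outside the cell it binds misfolded proteins as a chaperone, travels with lipoproteins and blocks the terminal complement complex. In the adult brain it is made mainly by astrocytes, choroid plexus and ependyma, and in the regenerating mouse intestine it marks rare cells whose appearance depends on YAP.

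Within a group, arrays had a Pearson's r of 0.994 or more over all genes. Such an r does not show the spread of single genes, and with 3 arrays a group precision is limited. The median log2 intensity of an array lay between 5.03 and 5.1 for YAP samples and between 4.3 and 4.42 for Nf2 samples, so levels were not set against each other across experiments except as ranks within an array. Yap1 differed by 0.27 (log2, SE 0.07, adjusted p = 0.0551) with YAP overexpression and Nf2 by -0.38 (SE 0.09, adjusted p = 0.246) in Nf2 knockouts, and neither passed limma's test at an adjusted p of 0.05. Whether the probes for Yap1 detect the transgene, and whether those for Nf2 lie in the deleted part, is not known here. Of the markers of region, En2 of the midbrain had a median percentile of 80.9 among the genes of an array with YAP overexpression and 81.6 in YAP controls, and 8.9 in Nf2 knockouts and 8.1 in Nf2 controls. Emx1 of the dorsal telencephalon had 37.7 and 43.9 in the same E11.5 groups, and 63.9 and 65.0 in the E13.5 groups. Emx1 fell with YAP overexpression by limma (-0.58, SE 0.12, adjusted p = 0.0172), while the other 3 regional markers were not called. The call of Emx1 was lost without overexpression replicate 1 or control replicate 1 or 3 (adjusted p up to 0.0636).

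Clu had the highest increase of all 17097 genes with YAP overexpression, 12.2-fold. On the brightest probe set, 1437689_PM_x_at, the overexpression arrays gave log2 intensities of 9.99, 10.38 and 9.35, against 6.54, 6.30 and 6.07 in YAP controls. The lowest overexpression array stood 2.81 log2 units above the highest control. The means were 9.91 (SD 0.52, n = 3) with overexpression and 6.30 (SD 0.24, n = 3) in controls, a difference of 3.60 (SE 0.21).

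The other probe sets gave the same order of groups with smaller differences. The probe set 1418626_PM_a_at read 8.69, 9.09 and 8.18 in overexpression arrays and 6.11, 5.66 and 5.37 in controls, a difference of 2.94 (SE 0.22), or 7.67-fold. The probe set 1437458_PM_x_at read 9.47, 10.14 and 8.99 with overexpression and 6.93, 6.85 and 6.32 in controls, a difference of 2.83 (SE 0.24), or 7.13-fold. In none of the 3 probe sets did the groups overlap. Groups without overlap and with overexpression higher were found for 9.72% of all genes, and nothing is read from this for Clu, which was chosen on the same values. The suffix _x_at marks probe sets with probes that may also match other transcripts, and 1418626_PM_a_at is the only one of the 3 without it. Among all 45037 probe sets, ranked by this difference, the 3 took ranks 1, 4 and 5.

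The 3 probe sets placed the arrays in the same order within the YAP overexpression group, with replicate 2 highest and replicate 3 lowest. Their deviations from the group means correlated with r from 0.919 to 0.957 over the 12 arrays, which share the same RNA on the same arrays. The residual SD of Clu, 0.31, was higher than that of 97.4% of genes.

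**Figure D1:**
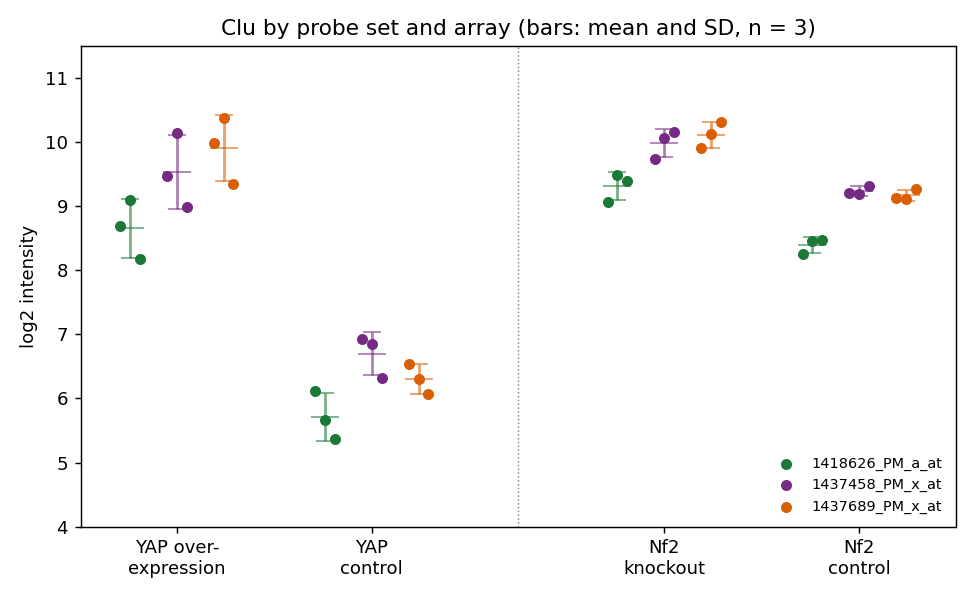
Log2 intensity of Clu (vertical axis) in each of the 12 arrays for its 3 probe sets, in YAP overexpression and YAP control at E11.5 and in Nf2 knockout and Nf2 control at E13.5. Points are arrays and bars give mean and SD (n = 3). All overexpression arrays lie at least 2.06 above the controls of the same probe set, and all knockout arrays at least 0.42 above theirs.

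Clu was also higher in Nf2 knockouts, by less than with YAP overexpression. On 1437689_PM_x_at the knockout arrays read 9.91, 10.12 and 10.31, against 9.13, 9.11 and 9.26 in Nf2 controls. The groups did not overlap, and the lowest knockout array was 0.65 above the highest control. The means were 10.11 (SD 0.20, n = 3) in knockouts and 9.17 (SD 0.08, n = 3) in controls, a difference of 0.95 (SE 0.21), or 1.93-fold. Groups without overlap, with knockouts higher, were found for 6.6% of all genes, again with nothing read from it. Same-numbered arrays differed by 0.78, 1.01 and 1.05.

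On 1418626_PM_a_at the knockouts read 9.06, 9.48 and 9.39 and the Nf2 controls 8.25, 8.46 and 8.47, a difference of 0.92 (SE 0.22). On 1437458_PM_x_at the knockouts read 9.74, 10.07 and 10.16 and the controls 9.20, 9.19 and 9.32, a difference of 0.75 (SE 0.24). All 3 probe sets thus had every knockout array above every control array. By this difference they took ranks 39, 45 and 72 of 45037 probe sets.

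In the order of genes, Clu stood at rank 19 for Nf2 knockout, between Egln3, an oxygen-sensing hydroxylase gene (0.95, SE 0.12), and Ajuba, a gene for a LIM-domain partner of LATS (0.92, SE 0.15). Just above Egln3 were Cldn12, a claudin gene of tight junctions (0.96, SE 0.11), and the metalloreductase gene Steap2 (0.97, SE 0.14). After Ajuba came the metallothionein gene Mt1 (0.89, SE 0.20) and Podxl, a sialomucin of the apical membrane (0.85, SE 0.14). The differences between Clu and any of these neighbours were smaller than the SE of Clu. This order takes no account of spread, and the genes above Clu included Xist at rank 1 (2.61, SE 2.90) and Mfap1a (1.07, SE 0.91). With YAP overexpression no gene stood above Clu, and the next were Steap1, a metalloreductase gene (3.03, SE 0.16), Pkp2, a plakophilin of cell junctions (2.70, SE 0.11), and Ccn2, a secreted matrix-associated protein used as a YAP reporter (2.5, SE 0.22). Without probe sets of the types _x_at and _s_at, Pkp2 differed by 0.14 with YAP overexpression and by 0.01 in Nf2 knockouts, and Steap1 by 1.93 with YAP overexpression. With probe sets averaged, the Nf2 differences of Steap2 and Podxl were 0.52 and 0.62. With same-numbered arrays as a block, limma's adjusted p in Nf2 knockouts was 0.0519 for Egln3 and 0.0924 for Podxl, against 0.00553 and 0.0269 without it.

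The change of Clu with YAP overexpression exceeded its change in Nf2 knockouts by 2.66 (SE 0.30) on the log2 scale, which is 6.31-fold. This was the highest such excess among all genes, and it was 2.02 on 1418626_PM_a_at and 2.08 on 1437458_PM_x_at. At least 2-fold increases with YAP overexpression were found for 57 genes (0.333% of those tested), Clu among them. Of the 57, 46 had a positive difference in Nf2 knockouts, where the median difference of all genes was -0.003. Within those 57, the ratio of the Nf2 to the YAP difference was 0.263 for Clu. Clu stood at rank 29 by this ratio and was thus itself the median gene. Clu held rank 9 of the 57 by its difference in Nf2 knockouts. The ratio was 0.812 for Ccn2, 0.686 for Steap1 and 0.526 for Ccn1, another matrix-associated YAP reporter, whereas it was 0.0205 for the apelin receptor ligand gene Apela and 0.0156 for the folate receptor gene Folr1. Age, tissue and the manipulation differed together between the experiments and cannot be told apart.

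**Figure D2:**
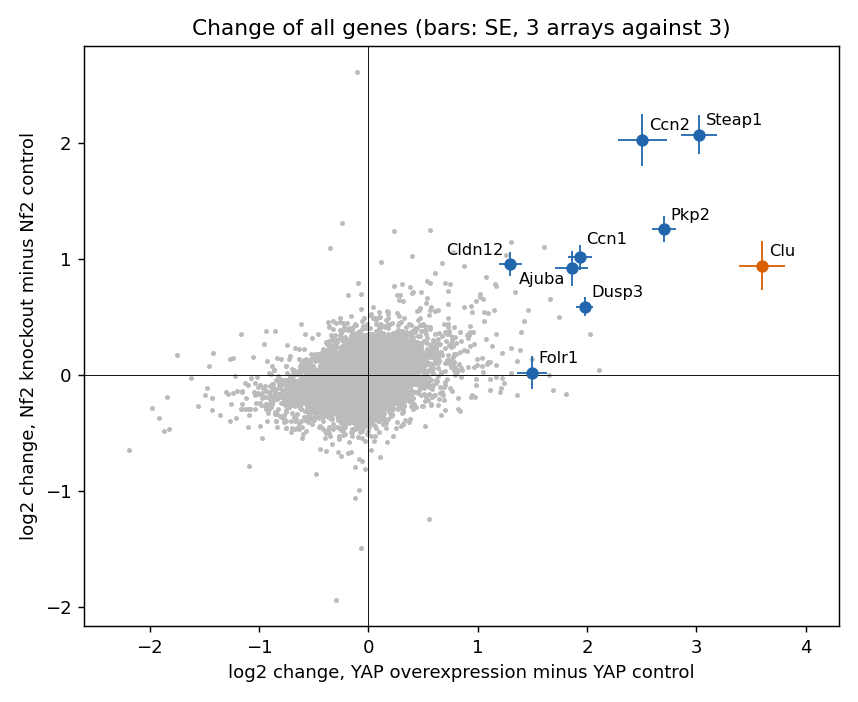
Log2 change of each of 17097 genes with YAP overexpression (horizontal axis) and with Nf2 knockout (vertical axis), each against its own controls. Coloured points are Clu and 8 named genes, with bars of 1 SE (3 arrays against 3). Clu lies farthest right at 3.60 while its Nf2 value, 0.95, is below those of Steap1 (2.08), Ccn2 (2.03), Pkp2 (1.26) and Ccn1 (1.02).

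The basal level of Clu was read as its rank among the 17097 genes of an array, a rank that also depends on how strongly a gene's probes bind. In YAP controls at E11.5 Clu sat at percentiles 51.7, 49.8 and 48.4, close to the middle of the array. In Nf2 controls at E13.5 it sat at 86.9, 86.7 and 88.1. The difference of the group medians was 37.1 points, a shift reached or passed by 37 of the 17097 genes with Clu among them (0.216%), where the median shift of all genes was -0.123. Age, dissected region, genotype and the likely separate normalization of the experiments cannot be told apart in this difference.

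YAP overexpression placed Clu at percentiles 86.7, 89.9 and 80.1, a range that includes all Nf2 control arrays at E13.5. Nf2 knockout placed it at 93.0, 94.2 and 95.1. The order of the group medians was thus Nf2 knockout (94.2), Nf2 control (86.9), YAP overexpression (86.7) and YAP control (49.8). Only Nf2 control and YAP overexpression overlapped. For 29.7% of all genes, every Nf2 control array stood above every YAP control array in percentile, and nothing is read from the lack of overlap. Over all probe sets of the array rather than over genes, 1418626_PM_a_at sat at 78.1 to 85.4 with YAP overexpression, 53.4 to 60.7 in YAP controls, 91.0 to 93.4 in Nf2 knockouts and 85.3 to 87.2 in Nf2 controls. On this probe set the highest overexpression array stayed just above the lowest Nf2 control array.

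Choroid plexus and astrocytes are known sources of clusterin in the adult brain, and their markers were read beside Clu. Whether these embryonic samples held astrocytes was not tested. Ttr, the transthyretin gene that marks choroid plexus epithelium, had percentiles of 22.6, 46.4 and 33.9 with YAP overexpression and 37.4, 41.1 and 55.1 in YAP controls. At E13.5 Ttr was among the brightest genes, at 99.5 to 99.7 in Nf2 knockouts and 99.6 to 99.7 in Nf2 controls. Kcnj13, a potassium channel gene of the same epithelium, likewise had 8.0 to 28 with overexpression and 8.74 to 18.8 in YAP controls, and 67.4 to 74.7 in Nf2 knockouts and 70.5 to 73.8 in Nf2 controls. Of the 9 measured choroid plexus markers, 7 had a higher median percentile in Nf2 controls than in YAP controls, with a median shift of 22.5 points over the list, and 2 a lower one, Otx2 (-17.6 points) and Kl (-6.7 points). Ependymal markers shifted up in 5 of 5, with a median of 20.6 points, which was the shift of Ccdc153. Ccdc153 and Tmem212 were dim genes, at median percentiles of 7.3 and 19.2 in YAP controls and 27.9 and 27.7 in Nf2 controls. Astrocyte markers shifted up in 7 of 11 and down in 4, with a median of 3.5 points, from -17.0 for Slc1a2 to 51.1 for Aldoc, which stood at 98.9 in Nf2 controls and 47.7 in YAP controls. The part of these markers in the basal level of Clu was not tested.

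Between the groups of an experiment, the choroid plexus list did not separate as Clu did. Its 9 measured markers averaged 5.98 to 6.10 (log2 intensity per array) with YAP overexpression and 5.78 to 6.10 in YAP controls, and 7.39 to 7.65 in Nf2 knockouts and 7.55 to 7.58 in Nf2 controls. Of the 9, Folr1 rose with YAP overexpression (1.5, SE 0.14, adjusted p = 9.17e-05), with arrays at 8.34, 8.33 and 8.13 against 6.83, 6.80 and 6.68 in controls. The other 8 were not called in limma's fit over all genes, with Ttr differing by -0.69 (SE 0.46, adjusted p = 0.469), and none was called in Nf2 knockouts, where 1 had an unadjusted p under 0.05. Over all genes, 6.31% were called with YAP overexpression (2.67% higher and 3.64% lower) and 0.252% in Nf2 knockouts (0.205% higher and 0.0468% lower). An unadjusted limma p under 0.05 was found for 19.6% of all genes with YAP overexpression and for 6.24% in Nf2 knockouts.

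Astrocyte markers, 11 of which were measured, averaged 5.94 to 6.06 with YAP overexpression and 5.94 to 6.07 in YAP controls, and 6.04 to 6.17 in Nf2 knockouts and 6.0 to 6.09 in Nf2 controls. The list was uneven in level. Gfap and Aqp4, which define mature astrocytes, stayed in the lowest 33.9% of genes on every array, whereas Gja1, a gap junction gene that progenitors also express, had median percentiles of 96.1 with YAP overexpression and 95.4 in YAP controls. Of the 11, Sparcl1 fell with YAP overexpression (-0.51, SE 0.13, adjusted p = 0.0386), and 10 were not called. That call was lost without overexpression replicate 1 or 3 or without control replicate 1 or 2, with adjusted p up to 0.137. None was called in Nf2 knockouts, where 2 had an unadjusted p under 0.05. Aldh1l1 differed there by 0.69 (SE 0.22, adjusted p = 0.502). Among 5 ependymal markers, Foxj1, the regulator of motile cilia, rose with YAP overexpression (0.43, SE 0.11, adjusted p = 0.0381) and 4 were not called. Foxj1 kept its call only without overexpression replicate 1 when each of the 6 arrays was left out in turn, with adjusted p up to 0.124.

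**Figure D3:**
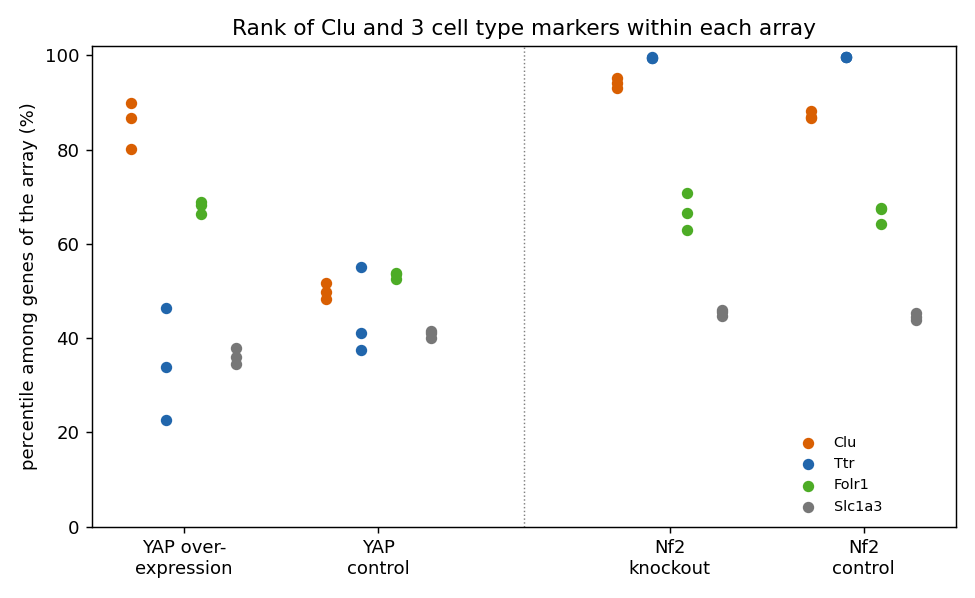
Percentile among the 17097 genes of each array (vertical axis, in percent) for Clu, the choroid plexus markers Ttr and Folr1 and the glial glutamate transporter gene Slc1a3, by group, with 1 point per array. Clu stands near the middle of the array in YAP controls (48.4 to 51.7) and at 80.1 to 89.9 with YAP overexpression, while Ttr overlaps between these groups and lies above 99 in every E13.5 array.

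Other cell types moved with the groups as follows. All 5 measured neuronal markers fell with YAP overexpression, their mean being 9.39 to 9.84 with overexpression and 10.2 to 10.4 in YAP controls. They fell by 0.55 (Map2) to 0.90 (Neurod1), and Tubb3, Elavl4 and Neurod1 kept their calls whichever array was left out. Stmn2 lost its call in 4 and Map2 in 5 of the 6 cases, with adjusted p up to 0.117 and 0.133. In these whole-tissue samples, fewer cells of a type and less RNA per cell cannot be told apart. Of 6 markers of neural progenitors, the cells in which the Nestin promoter is active, Vim, an intermediate filament gene, rose with YAP overexpression (0.27, SE 0.07, adjusted p = 0.0467), Fabp7, a fatty acid carrier gene of radial glia (-0.66, SE 0.17, adjusted p = 0.0359), and the transcription factor gene Pax6 (-0.34, SE 0.07, adjusted p = 0.013) fell, and 3 were not called. Their mean level was 10.5 to 10.8 with overexpression and 10.7 to 10.9 in YAP controls. Pax6 lost its call without control replicate 1 or 3 (adjusted p up to 0.0552). Vim kept its call only without overexpression replicate 3 and Fabp7 only without overexpression replicate 2, with adjusted p up to 0.155 and 0.115 without the others. None of the 6 was called in Nf2 knockouts, where 2 had an unadjusted p under 0.05. In Nf2 knockouts, microglial markers averaged 5.22 to 5.30, against 4.98 to 5.02 in Nf2 controls, and erythroid markers averaged 8.19 to 8.23, against 8.48 to 8.70. Limma called none of the 7 microglial and 7 erythroid genes, of which 2 and 4 had an unadjusted p under 0.05. The endothelial mean was 5.92 to 6.5 in knockouts and 6.43 to 6.6 in controls, with a median difference of -0.32. None of the 8 endothelial genes was called in Nf2 knockouts, and 4 had an unadjusted limma p under 0.05, a level reached by 6.24% of all genes. Of 10 genes of the cortical hem and roof plate, Bmp6, a secreted BMP ligand gene, rose with YAP overexpression (1.34, SE 0.15, adjusted p = 0.000401), Rspo1, an activator of Wnt signals, fell (-0.52, SE 0.13, adjusted p = 0.0374), 8 were not called, and none of the 10 was called in Nf2 knockouts, where 5 had an unadjusted p under 0.05. Rspo1 kept its call only without overexpression replicate 3, with adjusted p up to 0.118 without the others. The part of these shifts in the Clu values was not tested.

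Known interactors and functional relatives of clusterin were counted next. With YAP overexpression 1078 of 17097 genes were called, 456 higher and 622 lower, and the median difference of all genes was -0.007. The share of higher genes among the calls was 42.3%, or 64.3% with each array's median subtracted. Nf2 knockout gave 43 calls, 35 higher and 8 lower, with a median of -0.003, and 21 calls with same-numbered arrays as a block.

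Heat shock genes, whose products are chaperones inside the cell, held 3 that rose with YAP overexpression among 10 measured, none that fell and 7 not called, and their median difference was 0.17. Of all genes, 2.67% were called higher in that comparison. Hspb8, a small heat shock protein gene, rose by 0.81 (SE 0.12, adjusted p = 0.00178), with arrays at 6.46, 6.53 and 6.23 against 5.86, 5.42 and 5.52 in controls. Hspb1, its relative, rose by 0.88 (SE 0.23, adjusted p = 0.0387), with arrays at 7.15, 7.15 and 6.28 against 6.03, 5.99 and 5.93 in controls. Overexpression replicate 3 was the lowest of its group for both genes and for Clu. Hspa1b, an inducible chaperone of the HSP70 family, rose by 0.45 (SE 0.12, adjusted p = 0.0416). Its overexpression arrays read 5.55, 5.72 and 5.56, with replicate 1 and not replicate 3 the lowest.

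Averaged over all probe sets of the gene, Hspb8 differed by 0.50 and Hspb1 by 0.34, and without _x_at and _s_at probe sets Hspa1b differed by 0.84. Hspb8 was called whichever array was left out. Hspb1 kept its call only without overexpression replicate 3 and Hspa1b only without control replicate 2, with adjusted p up to 0.131 and 0.15 without the others. Cryab, another small heat shock protein gene, had the lowest difference of the list (-0.08, adjusted p = 0.735). In Nf2 knockouts none of the 10 was called by limma, 1 had an unadjusted p under 0.05, and the differences ran from -0.16 for Bag3 to 0.22 for Hspb1.

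Clusterin is folded and processed in the endoplasmic reticulum, and 12 genes of chaperones and of the unfolded protein response there were measured. With YAP overexpression Hyou1 (0.33, SE 0.07, adjusted p = 0.0198) and Manf (0.37, SE 0.10, adjusted p = 0.0469), both coding for chaperones or secreted factors of that compartment, rose, none fell and 10 were not called. The list's median difference was 0.18. Sdf2l1 had the highest difference (0.44, adjusted p = 0.0528) and Dnajb9 the lowest (-0.27, adjusted p = 0.115). Hspa5, the chaperone also known as BiP, differed by 0.29 (adjusted p = 0.09). Manf was not called without any 1 of the 6 arrays, with adjusted p from 0.0525 to 0.145. Hyou1 was not called without overexpression replicate 1 or 3 or control replicate 1 or 3 (up to 0.0728), and averaged over its probe sets it differed by 0.14. In Nf2 knockouts none of the 12 was called and 1 had an unadjusted p under 0.05, with differences from -0.20 for Hyou1 to 0.15 for Hspa5.

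Of the receptors that bind or take up clusterin, Lrp8, Vldlr, Trem2 and Plxna4 were measured. None was called in either comparison, with differences from -0.20 for Lrp8 to 0.21 for Vldlr with YAP overexpression and from -0.17 for Plxna4 to 0.33 for Trem2 in Nf2 knockouts. An unadjusted limma p under 0.05 was found for 1 of the 4, Trem2, and that in Nf2 knockouts only (adjusted p = 0.592).

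Complement components and regulators, the system that clusterin restrains, gave no call among 12 measured genes in either comparison, with an unadjusted limma p under 0.05 for 1 with YAP overexpression and for 3 in Nf2 knockouts. Their median difference was -0.13 with YAP overexpression and 0.10 in Nf2 knockouts. The extremes were C1qa (-0.34) and Cr1l (0.22) with overexpression, and Cd55 (-0.17) and C1qb (0.49) in knockouts.

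Among 11 apolipoproteins and genes of lipoprotein metabolism, Lcat, which esterifies the cholesterol of lipoproteins, rose with YAP overexpression (0.42, SE 0.10, adjusted p = 0.0323), Abcg1, a sterol exporter, fell (-0.46, SE 0.09, adjusted p = 0.0124) and 9 were not called. The list's median was 0.02. Apoe, the main apolipoprotein of the brain beside clusterin, differed by 0.02 (SE 0.09) with YAP overexpression and by 0.12 (SE 0.09) in Nf2 knockouts, and Apod by -0.28 (SE 0.15) and 0.01 (SE 0.15). Lcat kept its call only without overexpression replicate 3, with adjusted p up to 0.112, and Abcg1 lost it without control replicate 3 (0.0554). In Nf2 knockouts none of the 11 was called and 1, Apoa1, had an unadjusted limma p under 0.05 (difference 0.33), the lowest difference being -0.15 for Apob.

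Of transcription factors and signals reported to act on the Clu promoter, 12 were measured. With YAP overexpression Jun, a subunit of AP-1 (0.43, SE 0.09, adjusted p = 0.013), and Smad3, an effector of TGF-beta signals (0.44, SE 0.06, adjusted p = 0.00172), rose, Stat3 fell (-0.67, SE 0.12, adjusted p = 0.00818) and 9 were not called. The list's median was 0.10. Hsf2, a heat shock factor, differed by -0.32 (adjusted p = 0.0699) and Egr1 by 0.37 (adjusted p = 0.358). Jun lost its call without control replicate 1 (adjusted p = 0.0503), and with probe sets averaged Smad3 differed by 0.21 (adjusted p = 0.191) and Stat3 by -0.33 (adjusted p = 0.0496). In Nf2 knockouts none of the 12 was called and 1 had an unadjusted p under 0.05, with differences from -0.41 for Egr1 to 0.16 for Rela.

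Of 6 measured genes of apoptosis proteins reported to bind or act with clusterin, mostly in human cells, Bcl2, an inhibitor of cell death, rose with YAP overexpression (0.62, SE 0.09, adjusted p = 0.00203) and 5 were not called, the lowest being Bcl2l1 (-0.14). None was called in Nf2 knockouts, where none had an unadjusted limma p under 0.05 and the range was -0.16 for Bcl2l11 to 0.20 for Bak1. Of genes that mark Clu-positive or fetal-like cells of the regenerating mouse intestine, 10 were measured and none was called in either comparison. With YAP overexpression 2 had an unadjusted limma p under 0.05, and Anxa2, an annexin gene, differed most (0.47, adjusted p = 0.122), while S100a6 and Basp1 both differed by -0.27. In Nf2 knockouts 1 had an unadjusted p under 0.05 and the range was -0.17 for Il33 to 0.32 for Emp1. Their medians were -0.04 and -0.02.

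YAP reporter genes gave a reference for the size of the Clu change. With YAP overexpression 6 of 7 rose, with a median of 1.66, where 2.67% of all genes were called higher. In Nf2 knockouts 4 of 7 rose, with a median of 0.73, where 0.205% of all genes were called higher. The reporter genes were known from earlier results of the same arrays, so they are not an independent reference. Ccn1 read 8.34, 8.20 and 8.10 with YAP overexpression against 6.09, 6.52 and 6.23 in YAP controls, a difference of 1.93 (SE 0.11). Ptpn14, a phosphatase gene whose product holds back YAP, rose by 1.66 (SE 0.18, adjusted p = 0.000302) with YAP overexpression and differed by 0.66 (adjusted p = 0.353) in Nf2 knockouts. Amotl2, an angiomotin family gene whose product binds YAP, rose by 0.73 (SE 0.08) in each comparison, with adjusted p = 0.00043 and 0.00231. With probe sets averaged, the YAP difference of Ptpn14 was 0.92 and that of Lats2, a kinase gene of the pathway, 0.32, against 0.97 for the brightest probe set of Lats2. Ankrd1, a nuclear ankyrin repeat protein gene, was not called in either comparison (0.41, adjusted p = 0.206, and 0.04, adjusted p = 0.993). Lats2 was not called without overexpression replicate 1 (adjusted p = 0.0625) or control replicate 3 (adjusted p = 0.0638). Ajuba in Nf2 knockouts kept its call only without control replicate 1 or knockout replicate 3, with adjusted p up to 0.125.

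**Figure D4:**
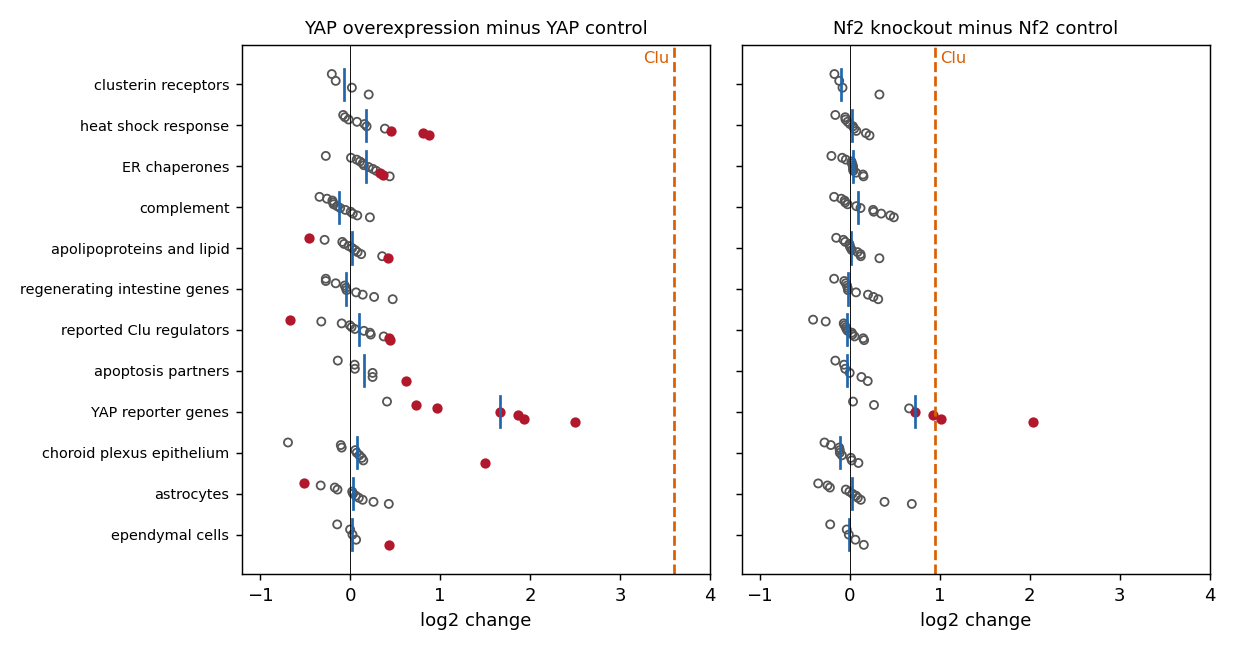
Log2 change of the measured members of 12 gene lists (rows) with YAP overexpression (left) and with Nf2 knockout (right). Filled points were called at an adjusted p under 0.05 by limma over all genes, blue bars give list medians, and the dashed line gives Clu (3.60 and 0.95). Outside the YAP reporter genes, Folr1 with YAP overexpression (1.5) was the called member with the highest change.

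The genes whose pattern was most like that of Clu were sought by Pearson's r over the 12 arrays after subtraction of each experiment's mean. This measure is dominated by the change with YAP overexpression, all values share the same arrays, and no test was made. Dusp3, a phosphatase gene of MAP kinase signalling, came first (r = 0.989), with differences of 1.98 (SE 0.08) with YAP overexpression and 0.59 (SE 0.08) in Nf2 knockouts. Its arrays read 8.85, 8.76 and 8.62 with YAP overexpression and 6.80, 6.85 and 6.65 in YAP controls, and 6.42, 6.53 and 6.49 in Nf2 knockouts and 5.87, 5.92 and 5.87 in Nf2 controls. Averaged over its probe sets, the Nf2 difference of Dusp3 was 0.26.

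The next were Samd4 (r = 0.972), which codes for an RNA-binding translational repressor, Rab15 (0.971), a small GTPase gene of membrane traffic, Srm (0.97), the spermidine synthase gene, and Erbb2 (0.969), a receptor tyrosine kinase gene. Slc2a3, a glucose transporter gene (0.967), Irak1bp1 (0.967), the kinase gene Nek6 (0.966), Smad3 (0.965) and Trip6, a LIM protein gene of focal adhesions (0.964), completed the 10. Their differences with YAP overexpression were all below that of Clu, from 0.31 for Irak1bp1 to 1.98 for Dusp3. With probe sets averaged, Irak1bp1 differed by 0.17 (adjusted p = 0.177) and was not called, Samd4 by 0.43 and Slc2a3 by 0.86. In Nf2 knockouts they ran from 0.07 for Rab15 to 0.59 for Dusp3. Slc2a3 differed by -0.18 with YAP overexpression once probe sets of those types were removed.

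**Figure D5:**
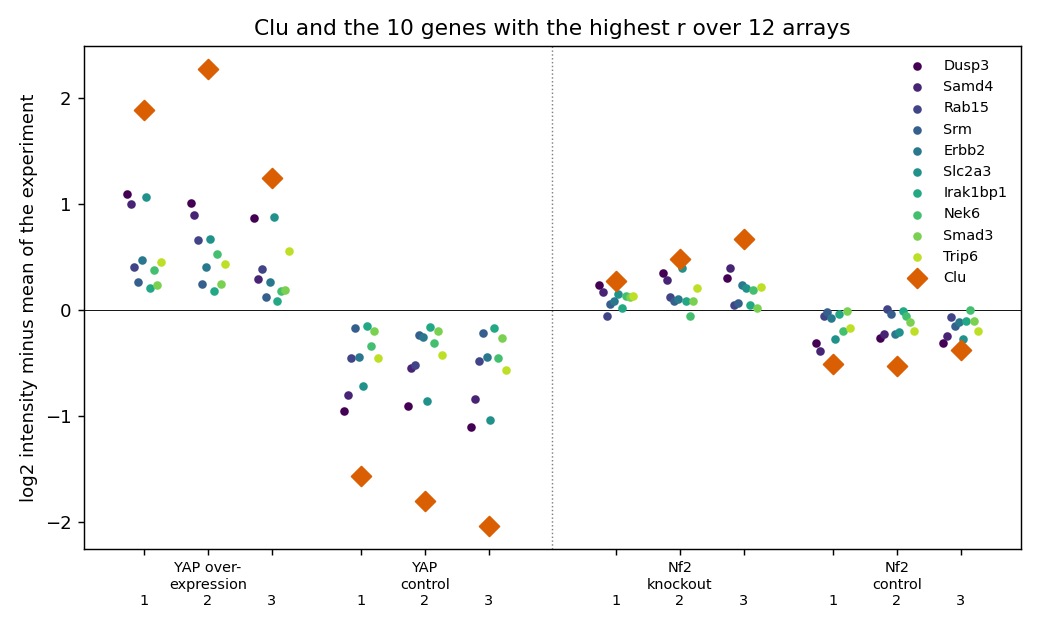
Log2 intensity minus the mean of the gene over the 6 arrays of its experiment (vertical axis) for Clu (diamonds) and the 10 genes with the highest r with it (dots), by group and replicate number. All 11 genes lie above 0 in every YAP overexpression array and below 0 in every YAP control array, and Clu has the widest range.

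Deviations of single arrays from their group mean, which leave out the group differences, gave other companions. Among 1709 further genes in the upper 10% by residual SD, Zfpm2, a cofactor of GATA factors, came closest (r = 0.959, 12 arrays), and it did not share the group pattern, differing by -0.45 (adjusted p = 0.229) with YAP overexpression and -0.37 (adjusted p = 0.872) in Nf2 knockouts. Erdr1 (0.942), Pdxdc1 (0.937), Upk3bl (0.922) and Crim1 (0.917) followed. Clu deviated by 0.47 in overexpression replicate 2 and by -0.56 in overexpression replicate 3, and the same arrays were the highest and the lowest of their group for these 5 genes. These correlations rest largely on that pair of arrays, and the rule picked them as the highest of many.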

How the data were processed

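The authors deposited log2 intensities per probe set, to 2 decimals. Per the submitters' processing notes, Affymetrix Expression Console 1.1, RMA and Partek 6.5 were used, with no role given for each. The log2 base was read from the range of the values. Separate normalization of the 2 experiments, which would shift levels between them, was inferred from the array medians. The members and gene lists were chosen with earlier results of these data known. Of 45037 probe sets, the platform annotation listed 29449, of which 28898 had 1 gene symbol, 551 had several and 0 had none. Of those with 1 symbol, 28689 were matched by Entrez ID and took the current symbol, and 209 were not and kept the platform symbol. The brightest probe set stood for a gene, giving 17097 genes. Using limma 3.58.1 (R 4.3.3), a mean was fitted for each of the 4 groups over the 12 arrays (8 residual and 4.096 prior degrees of freedom), with two-sided p-values adjusted by Benjamini-Hochberg over all genes and called at 0.05. The SE of a change of a probe set comes from the same fit over all probe sets. The fit was tested on simulated data with independent noise in each array, which cannot show how it behaves where arrays are correlated. With 3 arrays against 3, exact permutation reaches no p below 0.1 and was not used. List members with no single-gene probe set were not analysed here.

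Titles number the arrays of a group without saying that they came from separate embryos. The spread behind each p-value is thus that between arrays, and its technical part is not known. Xist, with an SE of 2.90 in both comparisons, varied widely between arrays of the same group. Titles do not give the sex of the embryos, and a mixture of sexes within groups was not tested. Residuals of same-numbered arrays correlated with r of 0.271, 0.212 and 0.207 in the Nf2 experiment and with 0.0971, -0.195 and -0.204 in the YAP experiment. There, arrays of different numbers reached 0.304 (overexpression replicate 3 with control replicate 2). Titles do not say whether same-numbered arrays were paired, and these few values cannot decide it. Named were all Clu probe sets, the called and the extreme members of each list of clusterin-related or YAP reporter genes, called markers of cell types, the 3 genes on either side of Clu by change, the 10 genes most like it, and Yap1 and Nf2. Of the 10 most like it by residuals, the first 5 are named. Apela and the other cell type markers were chosen after their values were seen. Alternatives were the probe set rule, scaling, a filter on dim genes, the arrays fitted, array weights, the replicate block and leaving out each array in turn.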

Additional observations from a re-analysis of the deposited data

Results flagged for a closer look

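A probe set without an entry in the platform table, 1454849_PM_x_at, had the pattern most like that of Clu among 15588 such probe sets (r = 0.993 over 12 arrays centred by experiment). It was looked at because it lies outside the gene tests and exceeded its controls. It read 9.84, 10.36 and 9.28 with YAP overexpression and 7.08, 7.19 and 6.86 in YAP controls, a difference of 2.78. In Nf2 knockouts it read 9.48, 9.75 and 9.81, against 8.71, 8.81 and 8.70 in Nf2 controls, a difference of 0.94. Its gene is not named here.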

How the results depend on the processing

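Clu was higher in the manipulated group under every alternative run in both comparisons, and it held rank 1 of all genes with YAP overexpression under both other probe set rules, both other scalings and with any 1 array left out. Its YAP difference was 3.13 with probe sets averaged and 2.94 without _x_at and _s_at probe sets, and the excess over its Nf2 difference was then 2.25 and 2.02. Leaving out 1 array gave 3.37 to 3.88 for YAP, 0.85 to 1.05 for Nf2 (ranks 12 to 25) and 2.42 to 2.93 for the excess. The YAP count of called genes was 361 with its 6 arrays alone and 689 with the replicate block, and 529 to 1241 with 1 array left out. Leaving out overexpression replicate 1 gave 688, overexpression replicate 3 gave 678, control replicate 1 gave 674 and control replicate 3 gave 529. The Nf2 count was 25 with its 6 arrays alone, 67 with array weights and 21 with the block, and 20 to 32 with 1 array left out, with 25 without control replicate 2, 23 without control replicate 3 and 20 without knockout replicate 2. The cause was not tested. The block left the Clu differences at 3.60 and 0.95. Pdxdc1 turned to -0.55 with probe sets averaged and Slc2a3 to -0.18 without _x_at and _s_at probe sets. Of the called genes the rule covers, 19 of 47 with YAP overexpression and 4 of 11 in Nf2 knockouts were not called without at least 1 of the arrays. With the 6 arrays of the experiment alone 22 of the 47 were not called, with the replicate block 10, with array weights 6, with probe sets averaged 5, with array medians subtracted 4, without _x_at and _s_at probe sets 3 and with quantile normalization 1. Of the 11 in Nf2 knockouts, 3 were not called with 6 arrays alone, 2 with the block, 2 with probe sets averaged and 1 without _x_at and _s_at probe sets.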
